A study of Homo sapiens with 12 samples.

Results

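The centromere and kinetochore genes described here are 43 genes taken from a fixed list of symbols, matched to the deposited expression table through GENCODE v29. All 43 were found among the 16676 genes listed, and 42 passed the filter on low values, which asked for 2 or more libraries at 1 TPM or above and left 15256 genes. TPM is a level per gene length and per library total. CENPP alone stayed below the filter, at 0.145 to 0.436 TPM over the 12 libraries. The cells were HCT116, an established human colon carcinoma line that carries wild-type p53. They were wild type (WT), knocked out for SPARCLE (KO) or over-expressing SPARCLE (OE), and each kind was kept in control medium or in 1 µM doxorubicin (dox) for 48 h. SPARCLE is a long noncoding RNA of the MIR34BHG gene, and doxorubicin is a cytotoxic drug that intercalates into DNA and blocks topoisomerase II, which leaves broken strands. Each of the 6 groups had 2 libraries, a and b, which the submitters call biological replicates. How the knockout and the over-expression were made, and whether a and b are separate clones or cultures, is not given in the sources used here, so p-values measure the spread between these libraries only.

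The centromere is the chromosome site where the histone variant CENP-A replaces histone H3, and HJURP with the Mis18 factors places it there. On that chromatin sits the constitutive centromere-associated network, which holds the outer kinetochore, built of the KNL1, MIS12 and NDC80 complexes, which together are called the KMN network. The NDC80 and SKA complexes grip the microtubules, the fibrous corona with CENPE, CENPF and the RZZ complex captures them early and feeds the spindle checkpoint, and shugoshins protect cohesion until anaphase. Many of these genes are transcribed mainly in late S, G2 and mitosis, and in cells with p53 damage signalling through CDKN1A (p21) and the DREAM complex is known to shut such genes down. In bulk RNA, fewer cells in those phases and less RNA per cell cannot be told apart.

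The libraries held 12599392 to 30690664 reads on listed genes, as recovered from the TPM values. The 6 dox libraries were all deeper (24893610 to 30690664 reads) than the 6 control libraries (12599392 to 18570797), and the share of TPM on small RNA genes was 64.8% to 71.7% in control and 66.1% to 75.8% in dox libraries. MIR34BHG (SPARCLE) had 384 and 622 reads in OE control and 430 and 487 in OE dox, against 0 in each WT and KO control library, 0 and 3 in WT dox, and 4 and 1 in KO dox. The over-expression was thus visible, whereas KO and WT could not be separated at this depth, where the floor is 3 reads. The libraries expressed EPCAM at 90.2 to 163.5 TPM and 9 of 10 colon epithelium markers were listed. One of them, VIL1, had only 3 to 8 reads in control libraries. The summed level of the 9 markers was 996.9 to 2192 TPM in control and 2685 to 3323 in dox libraries. They did not rise alike. With median-ratio library scaling, KRT19 stood at 484.7 to 1207 TPM in control and 1249 to 1911 in dox libraries. EPCAM stood at 105.3 to 174.8 and 112.4 to 134 TPM on that scale. The part of these markers in the results below was not tested. Of the other lineages, 1 of 7 fibroblast, 1 of 6 leukocyte, 1 of 4 endothelial and 2 of 5 kidney and neural markers were listed, with PTPRC, PECAM1 and COL1A2 not among the genes listed. Not all of those listed were low. The 2 kidney and neural markers summed to 27.1 to 53.3 TPM in control and 30.1 to 38.9 in dox libraries. Of these, TUBB3 had 1026 to 3539 reads and PAX2 8 to 43. The fibroblast marker COL1A1 had 2.37 to 4.20 and 1.04 to 6.19 TPM. The leukocyte and endothelial markers reached at most 1.00 and 0.373 TPM.

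Most of these genes fell with doxorubicin in all 3 kinds of cells, and CENPB, in WT cells, was the only one called higher. In WT cells 30 of the 42 genes tested were lower and 1 was higher, where 12.6% of all genes tested were lower and 19.6% higher. In KO cells 28 were lower and 0 higher (14.3% and 9.9% of all genes), and in OE cells 29 were lower and 0 higher (10.6% and 12.4%). Calls are at a Benjamini-Hochberg adjusted p under 0.05 over all genes tested, from limma on log2(TPM + 1), and every difference below is on that scale, which understates the change of genes at low levels. At an unadjusted p under 0.05, CENPB was also higher in KO and OE cells. The median difference of the 42 genes was -1.21 in WT, -1.38 in KO and -1.19 in OE cells, against 0.17, -0.01 and 0.11 over all genes. With library scaling that sets those all-gene medians near 0, the medians of the 42 genes were -1.38, -1.34 and -1.29. That scaling called 31, 30 and 31 lower and 1 higher in each, where it called 23%, 18.6% and 19.5% of all genes lower and 22.6%, 18.7% and 19.6% higher.

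Across the 12 libraries, 30 of the 42 genes had every dox library below every control library, and CENPB had every dox library above. Of all genes tested, 16.3% and 15.7% separated in these directions. With the median-ratio library scaling, 31 of the 42 genes separated downward and 2, CENPB and ZWILCH, upward, where 21.4% and 22.3% of all genes did. The 27 genes called lower in each kind of cells were CENPA, HJURP, MIS18A, CENPC, CENPH, CENPI, CENPN, CENPQ, CENPU, CENPW, KNL1, ZWINT, DSN1, NDC80, NUF2, SPC24, SPC25, SKA1, SKA2, SKA3, CENPE, CENPF, SGO1, SGO2, INCENP, CENPJ and CENPV. CENPK, KNTC1 and OIP5 were each called lower in 2 of the 3 kinds. Another 11 genes were called in none, namely CENPL, CENPM, CENPO, CENPT, CENPX, MIS12, NSL1, PMF1, SPDL1, ZW10 and ZWILCH. For each comparison, only libraries of the groups compared were left out. Leaving out each library in turn, the calls of 21 of 30 genes held each time in WT, 21 of 28 in KO and 15 of 29 in OE cells. In 14 of the 27 genes every call held, namely CENPA, CENPF, CENPI, CENPJ, CENPU, CENPV, DSN1, HJURP, KNL1, NDC80, NUF2, SGO1, SKA1 and SPC24. The count in OE cells dropped to 16 without OE control replicate b.

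**Figure D1:**
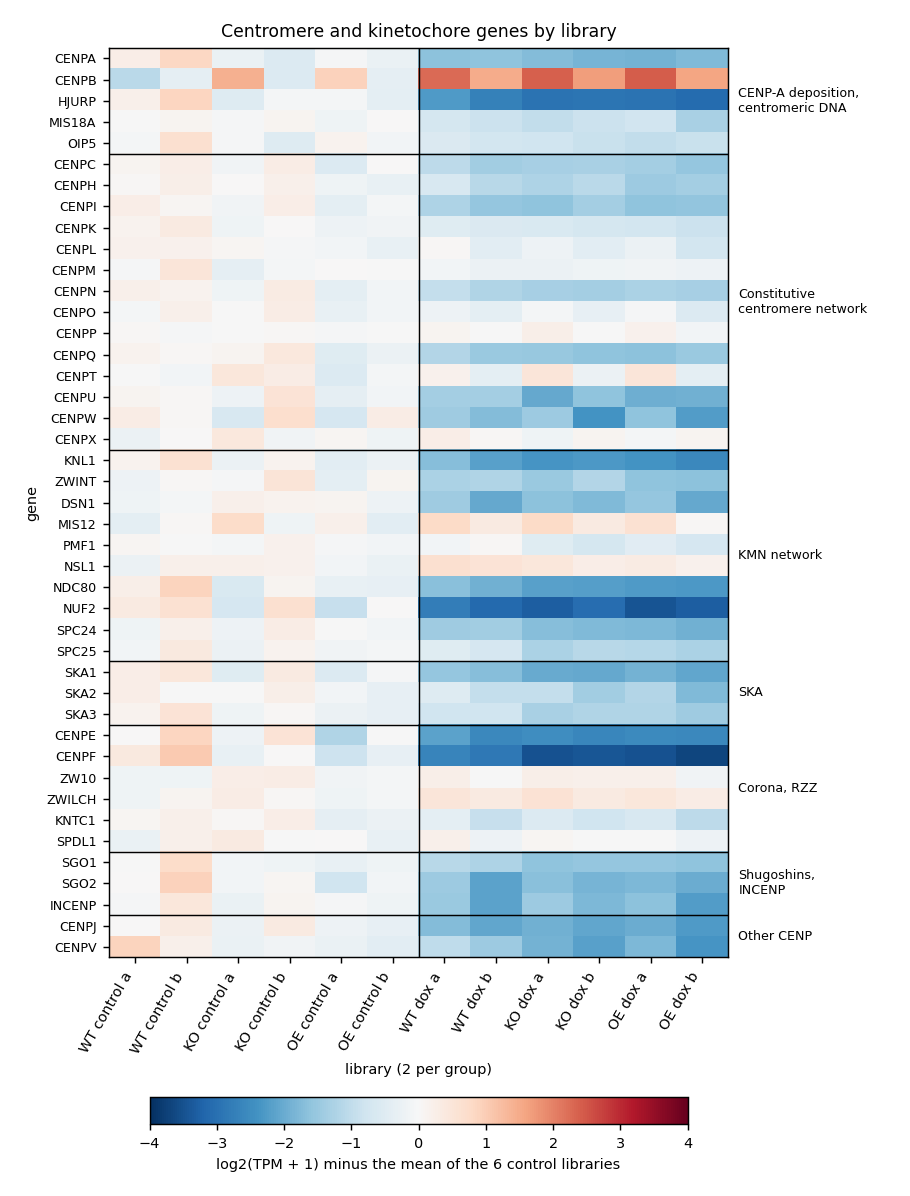
Level of each of the 43 genes in the 12 libraries, as log2(TPM + 1) minus the mean of the 6 control libraries (color scale), with genes in rows grouped by role. Blue fills the 6 dox columns for most rows, CENPB is red there, and rows such as CENPX, ZW10 and CENPT stay pale.

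**Figure D2:**
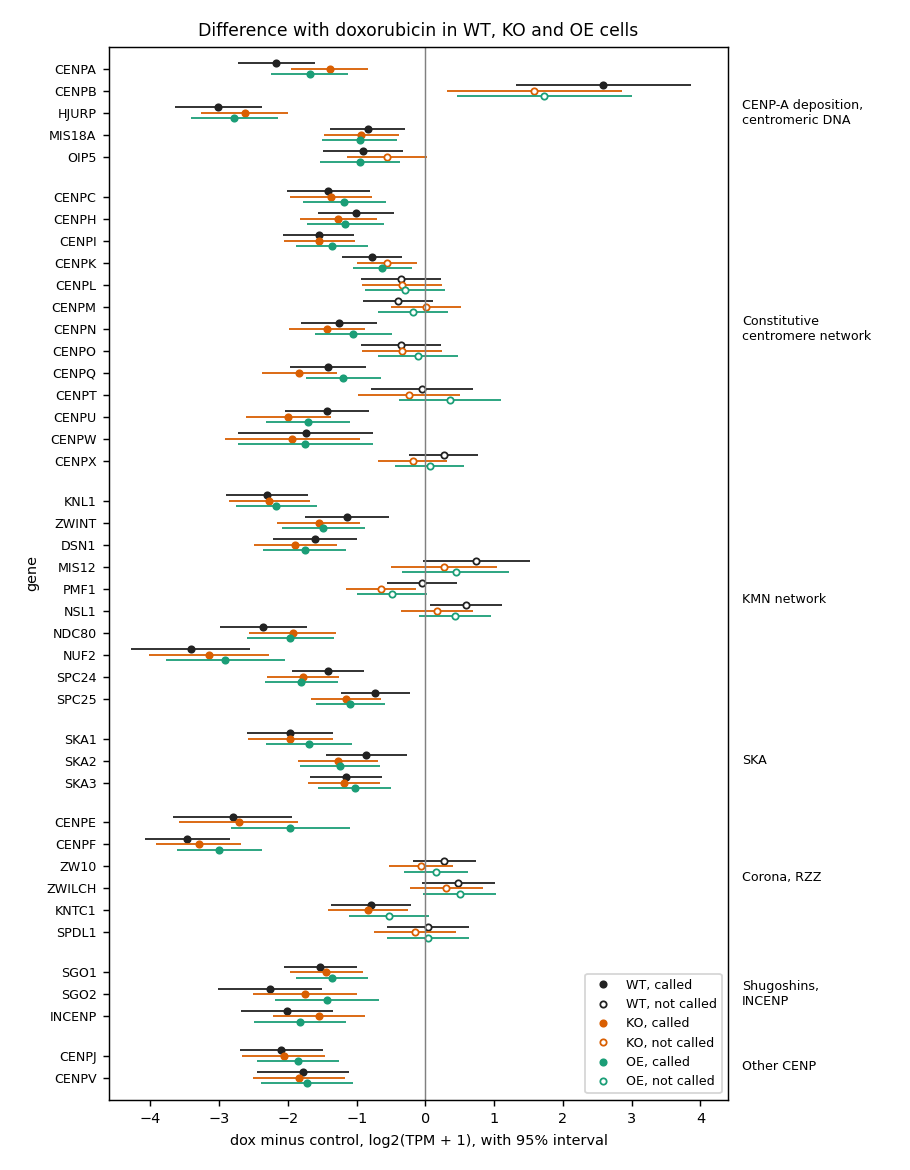
Difference between dox and control for the 42 genes tested in WT, KO and OE cells, on the log2(TPM + 1) scale, with the 95% interval of the fit as a line and filled points for adjusted p under 0.05. The 3 kinds of cells lie close together for most genes, from -3.46 for CENPF in WT cells to 2.59 for CENPB in WT cells.

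Promoter stretches of 7 of these genes are shown as examples of genes that fell and of genes that did not. Each is the 150 bases before the RefSeq transcription start on GRCh38.p14, 5′ to 3′ on the gene's strand. Capitals mark 2 motifs searched on both strands of a window from 250 bases before to 50 after the start. One is the CHR hexamer, known as the element that DREAM and its activating counterparts bind in late cell cycle genes, searched in the form TTTGAA and in the form TTCGAA. The other is CCAAT, the box known to be bound by the factor NF-Y, which appears as ATTGG where it lies on the other strand. CENPF, NUF2 and HJURP had the lowest differences in WT cells among genes whose window holds a CHR hexamer. CENPB and ZW10 are shown for contrast, and CENPA and INCENP were added after the matches were seen. The choice thus rested on the motif, so these 7 stretches cannot show whether it goes with the fall. The stretches lie at chr1:214603045-214603194 (+ strand) for CENPF, chr1:163321804-163321953 (+) for NUF2, chr2:233854536-233854685 (-) for HJURP, chr2:26785906-26786055 (+) for CENPA, chr11:62123861-62124010 (+) for INCENP, chr20:3786741-3786890 (-) for CENPB and chr11:113773693-113773842 (-) for ZW10.
CENPF: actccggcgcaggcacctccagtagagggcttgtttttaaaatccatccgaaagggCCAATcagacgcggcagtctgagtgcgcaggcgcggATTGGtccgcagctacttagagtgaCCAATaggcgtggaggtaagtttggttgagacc
NUF2: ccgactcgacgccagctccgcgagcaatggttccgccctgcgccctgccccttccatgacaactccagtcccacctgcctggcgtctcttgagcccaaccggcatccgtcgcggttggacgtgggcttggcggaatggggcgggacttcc
HJURP: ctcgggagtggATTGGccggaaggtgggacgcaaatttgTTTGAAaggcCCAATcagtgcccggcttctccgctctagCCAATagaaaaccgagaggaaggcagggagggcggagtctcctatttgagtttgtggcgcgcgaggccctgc
CENPA: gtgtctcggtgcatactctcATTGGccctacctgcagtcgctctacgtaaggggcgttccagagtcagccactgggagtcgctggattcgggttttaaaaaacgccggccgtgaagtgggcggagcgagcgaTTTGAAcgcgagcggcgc
INCENP: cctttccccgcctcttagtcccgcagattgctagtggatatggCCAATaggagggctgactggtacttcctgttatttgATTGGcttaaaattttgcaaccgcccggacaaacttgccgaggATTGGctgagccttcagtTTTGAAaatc
CENPB: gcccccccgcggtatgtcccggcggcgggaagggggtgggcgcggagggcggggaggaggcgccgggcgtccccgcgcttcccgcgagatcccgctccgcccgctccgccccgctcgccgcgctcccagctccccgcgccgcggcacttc
ZW10: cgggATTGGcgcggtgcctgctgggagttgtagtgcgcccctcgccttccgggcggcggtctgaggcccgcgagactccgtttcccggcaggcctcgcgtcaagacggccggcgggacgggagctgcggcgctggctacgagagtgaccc

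Counted from the start, the hexamer began 18 bases before it in CENPA, 10 before in INCENP and 111 before in HJURP. In CENPF and NUF2 it began 41 and 17 bases after the start, outside the stretch printed, and in ZW10 224 bases before, also outside it. CENPF, INCENP and HJURP held 3 CCAAT boxes each in the stretch printed, and CENPA and ZW10 held 1, while the NUF2 and CENPB stretches held neither motif. Windows were found for 36 of the 43 genes (42 windows). The hexamer was in 19 of the 42 windows (45.2%), against 16.4% of all 35116 windows and 11.5% of the windows of genes tested. It was in 15 of 25 windows (60%, from 23 genes) of genes called lower in all 3 kinds of cells. Of genes called in none, it was in 3 of 11 windows (27.3%, from 9 genes). CCAAT was in 68.0% and 63.6% of these windows and in 34.6% of all windows. The windows of ZWINT overlap, so the same hexamer is counted more than once there. In 12 of the 42 windows (28.6%) the hexamer began within 25 bases of the start, against 2.67% of all windows and 1.98% of those of genes tested. Of windows of genes lower in all 3 kinds 10 of 25 had it there, and of those called in none 1 of 11. The windows of CENPE, DSN1, CENPI and CENPV, all called lower in all 3 kinds, held neither motif. Among genes called in none, CENPO and a window of SPDL1 held the hexamer, and CENPX held 5 CCAAT boxes. A match is a run of letters, not a measured binding site, and no test was made of these shares.

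The factors that deposit CENP-A fell. Of the 5 genes of this group, 4 were lower and 1 higher in WT cells, 3 lower in KO and 4 lower in OE cells. CENPA (chromosome 2, 26764289 to 26801067, hg38), the centromeric histone itself, stood at 6.42 and 10.04 TPM in control WT, 4.15 and 3.19 in control KO, and 4.94 and 4.16 in control OE cells. It stood at 0.992 and 1.03 in WT dox, 0.834 and 0.705 in KO dox and 0.645 and 0.810 in OE dox. Every dox library was thus below every control library, and the 2 WT control libraries were the highest. The differences were -2.17 (SE 0.26, adjusted p = 0.000197) in WT, -1.39 (SE 0.26, adjusted p = 0.0031) in KO and -1.68 (SE 0.26, adjusted p = 0.00124) in OE cells.

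HJURP (chromosome 2, 233833416 to 233854566), the chaperone that loads CENP-A, fell further. It had 11.1 and 17.9 TPM in control WT, 6.24 and 8.98 in control KO, and 8.87 and 7.04 in control OE cells, against 1.16 and 0.622 in WT dox, 0.361 and 0.389 in KO dox and 0.362 and 0.230 in OE dox. The groups did not overlap, with the lowest control library at 6.24 and the highest dox library at 1.16 TPM. Its differences were -3.01 in WT (adjusted p = 6.7e-05), -2.63 in KO (0.00018) and -2.78 in OE cells (0.000141, limma). MIS18A and OIP5, which form the Mis18 complex that licenses loading, changed less. MIS18A differed by -0.84, -0.94 and -0.96, and OIP5 by -0.91 in WT and -0.95 in OE cells, with -0.56 (adjusted p = 0.145) in KO. The calls of both were lost without any of 3 or 4 of the 4 libraries in each kind of cells where they were called, at adjusted p up to 0.145 for MIS18A and 0.181 for OIP5. OIP5 shares 38.0% of its exon bases with the antisense gene OIP5-AS1, and the strand setting of the counting is not given in the sources used here.

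CENPB (chromosome 20, 3783851 to 3786690), which binds a short box in alpha-satellite DNA and is an intronless gene, went the other way. Its control libraries were far apart, at 2.60 and 4.85 TPM in WT, 19.4 and 4.11 in KO cells, and 13.3 and 4.82 in OE cells. Its dox libraries stood at 35.1 and 20 in WT, 38.2 and 22.9 in KO cells, and 39.1 and 21.7 in OE cells, and each of the 6 was above all control libraries. Replicate a was the higher of the pair in all groups other than WT control. The difference was 2.59 in WT cells (SE 0.59, adjusted p = 0.00635), 1.58 in KO (adjusted p = 0.0662) and 1.73 in OE cells (adjusted p = 0.0505). The WT call was lost without WT control replicate a (2.23, adjusted p = 0.0646) and without WT dox replicate a (2.19, adjusted p = 0.0659). In KO cells the difference was 2.58 without control replicate a (adjusted p = 0.00919) and 0.59 without control replicate b (adjusted p = 0.548). In OE cells it was 2.37 (adjusted p = 0.0412) and 1.08 (adjusted p = 0.333) without those replicates. The change passed the threshold in both KO and OE cells with median-ratio scaling, at 1.60 and 1.63 (limma adjusted p = 0.0328 and 0.0298), with the replicate letter as a block (adjusted p = 0.021 and 0.0154), with small RNAs left out, with limma-voom and with only the groups compared in the fit.

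In the constitutive centromere network, 8 of 13 genes tested fell in WT cells, 7 in KO and 8 in OE cells, and none rose in the limma fit. At an unadjusted p under 0.05, 8 of the 13 were lower in each of the 3 kinds, where 17.1%, 21% and 16.7% of all genes were. CENPC, which ties CENP-A nucleosomes to the outer kinetochore, had 4.24 to 8.40 TPM in the 6 control libraries and 1.64 to 2.68 in the dox libraries. The differences were -1.41, -1.38 and -1.18 in WT, KO and OE cells. The subunits of each subcomplex did not move alike. In CENP-H/I/K/M, CENPH (-1.01 in WT, -1.27 in KO, -1.17 in OE) and CENPI (-1.56, -1.55, -1.36) fell in all 3 kinds and CENPK (-0.78, -0.56, -0.63) in WT and OE. CENPM, of the same subcomplex, had 0.867 to 2.35 TPM in control and 1.02 to 1.21 in dox libraries, with differences of -0.40, 0.01 and -0.18. CENPM was counted with as few as 15 reads, and CENPK and CENPP alone had lower control medians.

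CENPN, which reads the CENP-A nucleosome, fell by 1.26, 1.43 and 1.05 on the log2 scale in WT, KO and OE cells, while its partner CENPL differed by -0.36, -0.34 and -0.30 (adjusted p = 0.317, 0.374 and 0.436). With median-ratio scaling all dox libraries of CENPL (1.65 to 2.59) lay below all its control libraries (2.61 to 3.91). CENPQ (-1.42, -1.83, -1.19) and CENPU (-1.43, -1.99, -1.70) fell, while CENPO, in the same subcomplex, differed by -0.35, -0.35 and -0.10 and its control (2.72 to 4.61 TPM) and dox libraries (2.10 to 3.39) overlapped. CENPW, a histone-fold subunit, had 8.45 to 23.1 TPM in control and 1.87 to 4.61 in dox libraries, and fell by 1.74, 1.94 and 1.75. Its partners with histone folds, CENPT (5.58 to 11.98 TPM in control, 6.22 to 12.5 with dox) and CENPX (29.4 to 47.0 and 30.7 to 41.8), overlapped between media, with differences of -0.05, -0.24 and 0.35 for CENPT and 0.27, -0.19 and 0.06 for CENPX. Without OE control replicate b the OE calls of CENPC, CENPH, CENPK, CENPN, CENPQ and CENPW were lost (adjusted p 0.0552 to 0.202). That of CENPH was also lost without OE control replicate a (0.0615), that of CENPW without OE dox replicate b (0.0738), and that of CENPK (0.04 with all libraries) without any one of the 4 OE libraries and when only the groups compared were fitted. Without KO control replicate b the KO calls of CENPC (0.0549) and CENPW (0.119) were lost. In WT cells CENPH, CENPK and CENPW each lost their call without any of 3 of the 4 libraries, at adjusted p up to 0.105. CENPO shares 31.4%, CENPN 22.8% and CENPT 19.6% of their exon bases with genes on the other strand.

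In the KMN network, 7 of 10 genes fell in each kind of cells. All 4 subunits of the NDC80 complex, the main microtubule coupler, were among them. NUF2 (chromosome 1, 163266576 to 163355764) had 14.0 and 17.1 TPM in control WT, 6.34 and 17.2 in control KO, and 5.18 and 10.9 in control OE cells. It had 0.734 and 0.373 in WT dox, 0.200 and 0.416 in KO dox and 0.0838 and 0.193 in OE dox, which were 39, 22, 12, 31, 5 and 14 reads. All dox libraries were below all control libraries, with KO control a and OE control a the lowest of the controls. NUF2 fell by 3.42 in WT (SE 0.40, adjusted p = 0.000184), 3.15 in KO and 2.91 in OE cells. NDC80 fell by 2.36, 1.93 and 1.97, SPC24 by 1.42, 1.78 and 1.81 and SPC25 by 0.73, 1.15 and 1.09. SPC25 was counted with 23 to 40 reads in control and 3 to 26 in dox libraries, and its WT call was lost with a pseudocount of 0.1 and without any of 3 of the 4 WT libraries (adjusted p up to 0.208). Its KO and OE calls were lost without control replicate b (0.0501 and 0.0594).

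KNL1, the scaffold that recruits the BUB checkpoint proteins, fell by 2.31, 2.27 and 2.17, from 5.17 to 11.6 TPM over the control libraries to 0.370 to 1.52 over the dox libraries. ZWINT, which binds KNL1, fell by 1.14, 1.55 and 1.48. The ZWINT call was lost in WT cells without control replicate b or dox replicate a and in OE cells without control replicate b (adjusted p up to 0.0597). Of the MIS12 complex, which joins the outer kinetochore to CENPC, DSN1 fell and MIS12, NSL1 and PMF1 were not called. DSN1 had 11.8 and 12.6 TPM in control WT, 15.7 and 15.0 in control KO, and 14.5 and 11.4 in control OE cells, and 4.39 and 2.47, 3.59 and 3.24, and 3.88 and 2.46 in the dox libraries of the same order. The lowest control library thus had 11.4 and the highest dox library 4.39 TPM. Its differences were -1.61 (adjusted p = 0.00155), -1.89 (0.000894) and -1.76 (0.0015, limma). MIS12 differed by 0.74, 0.27 and 0.44, NSL1 by 0.59, 0.17 and 0.43 and PMF1 by -0.05, -0.65 and -0.49, with adjusted p from 0.0606 (PMF1 in KO) to 0.88. PMF1 passed the threshold with median-ratio scaling in KO (-0.63, adjusted p = 0.0373) and OE cells (-0.60, adjusted p = 0.0441). PMF1 shares 23.3% of its exon bases with the readthrough gene PMF1-BGLAP.

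All 3 SKA genes, whose complex follows depolymerizing microtubule ends, fell in each kind of cells. SKA1 fell by 1.97, 1.96 and 1.69, from 2.20 to 5.34 TPM in control to 0.0970 to 0.603 in dox libraries, where it had as few as 6 reads. SKA3 fell by 1.16, 1.18 and 1.03. SKA2 had the second highest median of the 43 genes over the control libraries, after CENPX, though CENPF was above it in both WT control libraries. It had 18.1 to 28.0 TPM there and kept 6.15 to 15.7 TPM with dox, a difference of -0.86, -1.28 and -1.24. Its call was lost in WT cells without control replicate a or either dox replicate (adjusted p up to 0.187), in KO without control replicate b (0.0604) and in OE without control replicate a (0.058). The SKA3 call in OE cells was lost without either control replicate (0.0738 and 0.072).

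The corona genes CENPE and CENPF were among the genes with the lowest differences, whereas ZW10 and ZWILCH of the RZZ complex and its adaptor SPDL1 were not called in any kind of cells. Of these 6 genes, 3 fell in WT and KO cells and 2 in OE cells. CENPF (chromosome 1, 214603195 to 214664588), a large microtubule-binding protein that peaks in G2, had 29.4 and 47.1 TPM in control WT, 18.0 and 22.3 in control KO, and 12.2 and 17.6 in control OE cells. It had 2.75 and 2.20 in WT dox, 1.10 and 1.18 in KO dox and 1.10 and 0.834 in OE dox, from 214 to 511 reads. WT libraries were the highest in each medium. CENPF fell by 3.46 in WT (SE 0.29, adjusted p = 2.28e-05), 3.3 in KO (5.9e-05) and 3.0 in OE cells (8.57e-05). CENPE, the kinesin that carries chromosomes toward the plate, fell by 2.80, 2.72 and 1.96, and its OE call was lost without OE control replicate b (adjusted p = 0.0758).

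Of the RZZ complex, which brings dynein and checkpoint proteins to the kinetochore, KNTC1 (ROD) fell in WT (-0.79, adjusted p = 0.0408) and KO cells (-0.83, adjusted p = 0.0408) and differed by -0.53 in OE cells (adjusted p = 0.167). The call was lost without any of 3 WT or any of 4 KO libraries in turn, at adjusted p up to 0.265, and OE cells passed with median-ratio scaling (-0.64, adjusted p = 0.0243). ZW10 had 12.95 to 18.3 TPM in control and 13.3 to 17.5 in dox libraries and differed by 0.27, -0.06 and 0.15. ZWILCH had 3.57 to 5.40 and 5.35 to 6.82 TPM, with the dox library OE b just under the highest control library, and differed by 0.48, 0.30 and 0.50 (adjusted p = 0.149, 0.388 and 0.152). With median-ratio scaling all dox libraries of ZWILCH (5.20 to 6.67) lay above all its control libraries (3.78 to 4.67). SPDL1, the dynein adaptor spindly, differed by 0.04, -0.15 and 0.04, and its sign turned with that scaling in WT (-0.13) and OE cells (-0.04).

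The shugoshins and INCENP, the scaffold of the chromosomal passenger complex, fell in each kind of cells, 3 of 3 genes. SGO1 differed by -1.53, -1.44 and -1.36, from 1.67 to 4.35 TPM in control to 0.0628 to 0.514 with dox, where it had 5 to 31 reads. SGO2 differed by -2.27, -1.75 and -1.44, and its OE call was lost without OE control replicate b (adjusted p = 0.138). INCENP had 17.9 and 25.3 TPM in control WT, 15.0 and 19.8 in control KO, and 17.6 and 16.3 in control OE cells, and 5.998 and 3.39, 6.06 and 4.546, and 5.29 and 3.11 with dox. Its differences were -2.01, -1.54 and -1.82, with no overlap between media, and the KO call was lost without KO control replicate b (adjusted p = 0.0522). The remaining genes that carry a CENP name, CENPJ, a centriole assembly factor, and CENPV also fell in each kind of cells. CENPJ differed by -2.10, -2.06 and -1.86 and CENPV by -1.78, -1.84 and -1.73.

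Because subunits of several complexes did not move together, the ratio of their levels per length was followed in 34 subunit pairs of 11 complexes, set after the values were seen and given without a test. In the MIS12 complex, the MIS12 level was 0.292 to 0.583 times the DSN1 level in the 6 control libraries and 2.08 to 2.77 times in the 6 dox libraries. CENPT stood at 0.450 to 1.38 times CENPW in control and at 1.76 to 3.77 times with dox, and ZW10 at 1.64 to 2.62 times KNTC1 in control and 3.51 to 4.96 times with dox. CENPO went from 0.574 to 0.802 times CENPU to 1.77 to 6.64 times. In these pairs a subunit called in no kind of cells came to exceed or further exceed one called lower, and the ranges did not overlap. The latter was called lower in all 3 kinds, except KNTC1, called in WT and KO cells only. Subunits that all fell also shifted against each other. NUF2 stood at 1.36 to 4.33 times SPC24 in control and 0.222 to 0.968 times with dox, SKA1 at 0.103 to 0.236 and 0.0136 to 0.0386 times SKA2, and CENPA at 0.355 to 0.665 and 0.858 to 3.53 times HJURP. Other pairs kept overlapping ratios, such as SKA2 to SKA3 (3.55 to 6.61 and 6.15 to 10.9), ZW10 to ZWILCH (2.84 to 4.17 and 2.48 to 3.02) and NDC80 to SPC24 (0.955 to 2.36 and 0.789 to 1.26).

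**Figure D3:**
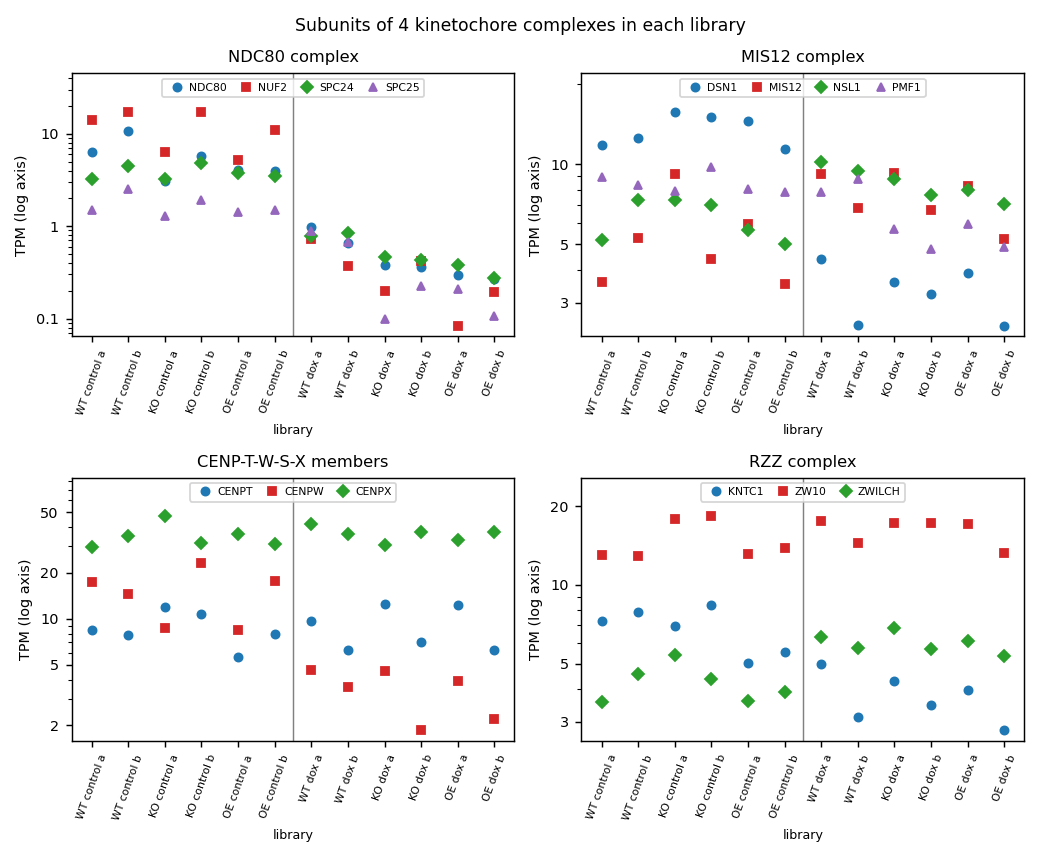
TPM on a log axis of the subunits of 4 complexes in the 12 libraries, control left and dox right of the line. All 4 NDC80 subunits drop, DSN1 moves from the top to the bottom of its complex, and CENPW and KNTC1 drop while CENPT, CENPX and ZW10 overlap between media.

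The order of the 43 levels per length changed with these moves. In control libraries the highest medians were those of CENPX (33.1 TPM), SKA2 (22.7), CENPF (20.1) and INCENP (17.8), and the lowest after CENPP were CENPK (1.11), CENPM (1.35) and SPC25 (1.49). The ranges of SKA2, CENPF and INCENP overlapped with each other, and those of CENPX and CENPF did too. CENPF was above SKA2 in both WT control libraries and above CENPX in replicate b, and below SKA2 in each KO and OE control library. In dox libraries CENPX (36.4), CENPB (29.02), ZW10 (17.1) and SKA2 (10.5) came first, with CENPB moving from place 28 to place 2 and CENPF from place 3 to 26. CENPX and CENPB overlapped there, and ZW10 and SKA2 did too. The lowest were SGO1 (0.105), SKA1 (0.214) and SPC25 (0.218), whose ranges overlapped.

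Genes outside the 43 from 3 related lists were set beside them. Of 24 other kinetochore and centromere genes, 13 were lower and 2 higher in WT cells, 12 lower and 1 higher in KO and in OE cells. They included KIF2C, the microtubule-depolymerizing kinesin (-3.61, adjusted p = 1.52e-05 in WT), BUB1, the checkpoint kinase (-3.53), BIRC5, the passenger subunit survivin (-3.77), and BUB1B (-2.78). Of 20 subunits and regulators of DREAM, its activating counterparts and FOXM1, 3 were lower and 4 higher in WT, 6 lower and 3 higher in KO and 4 lower and 3 higher in OE cells. In WT cells these shares, 3 and 4 of 20, were near the 12.6% and 19.6% of all genes. The KO counts, 6 and 3 of 20, lay above the all-gene shares of 14.3% lower and 9.9% higher. Those of OE cells, 4 and 3 of 20, lay above 10.6% and 12.4%. The same all-gene shares are the background for the kinetochore and replication lists. Among single genes of the regulator list, MYBL2 and FOXM1, activators of late cell cycle genes, fell by 1.60 and 1.40 in WT cells. There NFYA, a subunit of NF-Y, fell by 1.29, and TFDP1, the partner of E2F proteins, rose by 1.23. Of 22 replication genes, 10 were lower and 2 higher in WT, 12 lower and 0 higher in KO and 12 lower and 1 higher in OE cells, with ORC1 (-1.84), CDC6 (-1.47), RFC4 (-1.44) and MCM7 (-1.17) lowest in adjusted p in WT. MKI67, a proliferation gene, fell from 8.56 to 39.9 TPM over control libraries to 0.342 to 1.71 over dox libraries. CDKN1A, the p21 inhibitor of cyclin-dependent kinases, rose from 73.5 to 109.6 TPM to 505.1 to 1038 TPM. The part of cell cycle position in the differences of the 43 genes was not tested.

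Without doxorubicin, none of the 42 genes was called in KO or in OE against WT cells in the limma fit, though most lay lower in KO and OE than in WT cells. KO and OE cells were not compared with each other. In KO against WT control cells 0 were called, where 0.059% of all genes were lower and 0.0328% higher, and limma-voom called 0. At an unadjusted p under 0.05, 5 were lower (1.11% of all genes), namely CENPA, CENPF, NDC80, HJURP and CENPV, and 0 were higher (6.04% of all genes). CENPA differed by -0.96 (95% interval -1.52 to -0.40, adjusted p = 0.356), and median-ratio scaling called it lower (-1.17, adjusted p = 0.0424). The median of the 42 genes was -0.11 against 0.20 over all genes, or -0.33 with that scaling, with 26 and 33 of 42 below 0. In OE against WT control cells 0 were called (0.0852% of all genes lower and 0.0328% higher) and limma-voom called 0. At an unadjusted p under 0.05, 12 were lower (3.34% of all genes) and 0 higher (1.68%). CENPF, at 29.4 and 47.1 TPM in WT against 12.2 and 17.6 in OE control, had the smallest p, with a difference of -1.28 (95% interval -1.90 to -0.67, adjusted p = 0.198). The median was -0.36 against -0.04 over all genes, and 37 of 42 were below 0.

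These KO and OE differences share the WT libraries, and control libraries of one group were unlike. Centred on each gene's mean, the median of the 42 genes minus that of all genes was 0.87 and 0.84 in control WT, 0.28 and 0.78 in control KO, and 0.35 and 0.71 in control OE cells for replicates a and b. Replicate a of KO and OE control was thus lower than the other 4 control libraries. In dox libraries the same value was -0.48 and -0.49 in WT, -0.92 and -0.57 in KO cells, and -0.88 and -0.59 in OE cells, with WT again the highest. MKI67 had 15.9 and 39.9 TPM in control WT, 8.65 and 11.6 in control KO, and 11.6 and 8.56 in control OE cells. Its part in the differences was not tested.

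**Figure D4:**
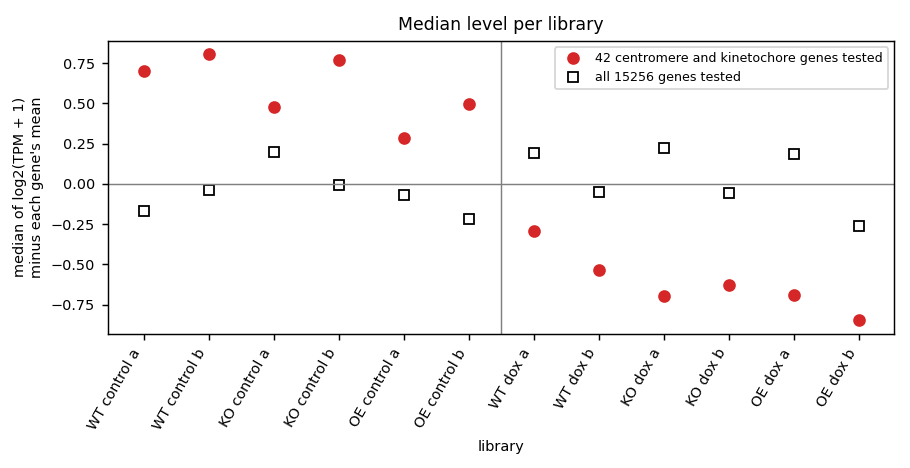
Median over the 42 genes tested (red) and over all genes tested (open squares) of log2(TPM + 1) minus each gene's mean over the 12 libraries. The red points lie above the squares in each control library and below them in each dox library, and among controls the distance is smallest in replicate a of KO and OE cells.

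With doxorubicin, 0 of the 42 genes were called in KO against WT cells (0.184% of all genes lower and 0.111% higher) and 0 in OE against WT cells (0.229% and 0.0852%), by limma and by limma-voom. At an unadjusted p under 0.05, 4 were lower in KO (1.51% of all genes), namely SPC25, CENPV, PMF1 and CENPF, and 5 in OE cells (3.4%), namely CENPF, CENPV, SPC25, SKA2 and PMF1. None was higher at that p, where 1.91% and 1.43% of all genes were. In CENPV, singled out after its values were seen, levels were 16.3 and 9.56 TPM in WT control against 6.77 and 7.40 in KO and 6.71 and 5.90 in OE control, and 3.56 and 2.37 in WT dox against 1.48 and 1.06 in KO and 1.68 and 0.810 in OE dox. WT libraries were above the others in both media. The differences were -0.74 and -0.89 in control medium and -0.79 and -0.83 with dox for KO and OE, with adjusted p from 0.657 to 1 and each against shared WT libraries.

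Whether the response to doxorubicin depended on SPARCLE was asked by the interaction terms, and none of the 42 genes was called in KO or OE cells. The count at an unadjusted p under 0.05 was 0 and 0, where 0.996% of all genes were lower and 0.275% higher for KO and 0.57% and 0.413% for OE cells, and limma-voom called 0 in each. At the adjusted threshold 0.00655% of all genes were lower and 0% higher in each. The interaction of CENPF was 0.16 (95% interval -0.71 to 1.04) in KO and 0.46 (-0.41 to 1.34) in OE cells, and that of NUF2 0.27 (-0.96 to 1.5) and 0.50 (-0.72 to 1.73). That of CENPA was 0.78 (-0.01 to 1.57) and 0.49 (-0.30 to 1.28), and that of CENPB -1.0 (-2.80 to 0.80) and -0.86 (-2.66 to 0.94). Over the 42 genes the 95% interval, not adjusted for the number of genes, reached a median of 0.83 to each side. Calls were adjusted over all genes tested, so differences of that size and larger could be missed with 2 libraries a group.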

How the data were processed

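Strand-specific total RNA libraries of 12 HCT116 cultures, in 6 groups of 2 read from the sample titles, were deposited as 1 table of log2 TPM, per the file headers. The deposited log2 values, raised to the power of 2, summed to 1000000 in each column. Tools listed in the submitters' processing notes are edgeR 3.12.1, featureCounts, HISAT2 2.0.4, R 3.3.3 and SAMtools 1.7, with the build hg38. The annotation, strand setting and low-value filter are not given in the sources used here. Small RNAs took a large share of TPM, so a shift in them moves all other genes. Whole reads were recovered from TPM with GENCODE v29 exon lengths for 15182 genes (91.7%, within 0.05 reads in each library), against 5 with shuffled lengths. The 43 genes were among them. Another 1494 genes used a searched length.

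A limma 3.58.1 model (R 4.3.3) of 6 group means was fitted to log2(TPM + 1) of all 12 libraries, with variances that follow the mean (6 residual and 6.97 prior degrees of freedom). It gave 9 comparisons. Tested on simulated data with 15256 genes for the comparison of dox with control in WT cells, it recovered 55 of 97 genes changed 2-fold, 103 of 103 changed 4-fold and called 33 unchanged genes. The changed genes were drawn from those with a mean TPM of at least 5, at a fixed dispersion of 0.025. These rates therefore do not cover genes at lower levels, as many of the 43 are. The members and lists were chosen with earlier results of these data known. Any of the 43 genes may be named, and of each other list the 4 genes with the smallest adjusted p in WT cells, with MIR34BHG, CDKN1A, FOXM1 and MKI67. CENPS was added after its values were seen. Alternatives were other pseudocounts, filters, scalings, samples and pairings, limma-voom on recovered reads, and leaving out each library of the groups compared.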

Additional observations from a re-analysis of the deposited data

How the results depend on the processing

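The numbers of the 42 genes called lower with dox (30 in WT, 28 in KO and 29 in OE cells) stayed within 1.5 times under all alternatives run, except that a mean TPM of at least 5, which fewer of the genes reach, gave 14, 14 and 13, and leaving out OE control replicate b gave 16. Leaving out each library in turn gave 22 to 25 in WT, 21 to 27 in KO and 16 to 27 in OE cells; an arm left with 1 library was assumed to vary like the other groups. The number called higher (1 in WT, 0 in KO and OE) ranged from 0 to 1 in each kind of cells with a library left out. It was 2 in WT with small RNAs left out or only the groups compared in the fit. In KO it was 1 with median-ratio scaling, small RNAs left out, limma-voom, only the groups compared or the replicate block. In OE it was 1 with median-ratio scaling, limma-voom, only the groups compared or the replicate block, and 3 with small RNAs left out. With a mean TPM of at least 5, all 66 values of the genes that reach it kept their direction and side of the threshold. With the replicate letter as a block, 30, 30 and 29 genes were lower in WT, KO and OE cells. The block also put CENPB (higher in KO and OE), CENPK and PMF1 (lower in KO) past the threshold. What the letters stand for is not given: the correlation of a minus b between groups was 0.81 for KO and OE with dox and 0.50 for KO and OE control, -0.389 for WT and KO control, and 0.25, 0.097 and 0.21 for control and dox of WT, KO and OE cells, so the pairing was not taken as shown. In KO against WT control cells median-ratio scaling called 1 gene lower, and all counts stayed at 0 with a library left out there and in the other comparisons of KO or OE with WT and the interactions.

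Of the 1452 values of single genes under alternatives, 1324 kept direction and side of the threshold, 70 lost and 33 gained a call, and 25 changed sign, all in genes that were not called; the cause was not tested. These differences crossed 0 over the fits with a library left out, or, where named, under another setting. In WT cells, CENPT ranged from -0.33 to 0.23, PMF1 ranged from -0.12 to 0.021 and SPDL1 ranged from -0.20 to 0.27 and was -0.13 with median-ratio scaling and -0.14 with limma-voom. In KO cells, CENPM ranged from -0.14 to 0.16, CENPT ranged from -0.62 to 0.13, CENPX ranged from -0.47 to 0.098, MIS12 ranged from -0.19 to 0.73, ZW10 ranged from -0.081 to -0.045 and was 0.099 with small RNAs left out and SPDL1 ranged from -0.34 to 0.041. In OE cells, CENPO ranged from -0.36 to 0.15, CENPT ranged from -0.091 to 0.80, CENPX ranged from -0.049 to 0.17 and was -0.053 with median-ratio scaling and -0.057 with limma-voom, ZW10 ranged from -0.017 to 0.33 and SPDL1 ranged from -0.11 to 0.19 and was -0.045 with median-ratio scaling and -0.058 with limma-voom. Depth limits SPC25, NUF2, SGO1 and SKA1, with 3 to 6 reads in their lowest libraries.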
